A study of Mus musculus with 36 samples.

Results

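Genes of cholesterol synthesis and sterol regulation were followed in germ cells and supporting cells sorted from the fetal mouse gonad. The set holds 32 genes given by name: the enzymes from acetyl-CoA to cholesterol, the SREBP regulators, sterol transport and export genes, and 3 fatty acid enzymes that the same regulators act on. A member was measured where a probe set of the array was annotated with exactly 1 gene symbol, that of the member, and where a gene had several, the one with the higher mean on the arrays stood for it. By this rule 31 of the 32 members were found among 19938 genes. No such probe set was found for Acat2, the cytosolic enzyme that joins 2 acetyl-CoA units, and it has no value here. All 31 measured members passed the filter on low values and were tested.

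Cells build cholesterol from acetyl-CoA by way of mevalonate, isoprenoid units, squalene and lanosterol. When sterols run low in the endoplasmic reticulum, the escort protein Scap carries the SREBP factors (made from Srebf1 and Srebf2) to the Golgi, where they are cut into transcription factors that switch on the synthesis genes, and Insig proteins hold Scap back when sterols are plentiful. Surplus sterol activates liver X receptors, which raise the exporters Abca1 and Abcg1. In the gonad cholesterol is the raw material of steroid hormones, which Leydig cells of the testis make already in fetal life, and germ cells and supporting cells also need it for membranes.

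The series measured RNA on Affymetrix Mouse Gene 1.0 ST arrays in 36 samples, 12 groups of 3, and the values are log2 expression. The germ cell groups were XY and XX, sampled at TS13, TS24 and TS34 as the labels name the stages, all from progeny of C57BL/6NJ on a mixed background with Oct4 as the reported gene. The supporting cell groups, the lineage of Sertoli and pregranulosa cells, were XY and XX at the same stages. The XY groups at TS24 and TS34 came from Tg(Sox9-cre/ERT2)1Msan/J mice, progeny of C57BL/6, with Sox9 as the reported gene. The XY group at TS13 and the XX groups at all stages came from Tg(Sry-EGFP)92Ei mice, progeny of CD-1, with Sry as the reported gene. Cell type, and within supporting cells the later XY groups, therefore cannot be told apart from mouse line and reporter. In every group gonads of 1 sex were pooled, taken apart with trypsin and sorted with the dead-cell dye DAPI. The labels do not say that replicates were separate pools, so p-values reflect only how these arrays vary, and that variation may be technical.

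A library labelled germ XX TS24 replicate 3 did not look like germ cells, with the germ cell gene Pou5f1 at 5.07 against 10.70 in the other 2 arrays of its group and the somatic factor Wt1 at 11.19 against 7.69. It was left out, so germ XX TS24 has n = 2 and 35 arrays entered the fit. On this array Scd2 was 10.62 against 7.87 and Fdps 8.69 against 9.97. On the other arrays Pou5f1 group means were 9.98 to 11.46 in germ cells and 5.16 to 5.64 in supporting cells. Within supporting cells the Sertoli list (Sox9, Amh, Dhh) had a summed level of 11.59 to 12.26 in XY and 8.69 to 9.33 in XX arrays, on the log2 scale. At TS13 this sum followed Sox9, with means of 11.70 in XY and 8.46 in XX. At that stage Amh had means of 6.10 in XY and 5.90 in XX, and Dhh 6.38 and 5.87. The pregranulosa list (Foxl2, Fst, Bmp2) had 7.82 to 8.95 in XY and 11.92 to 12.83 in XX arrays, although Foxl2 itself stayed at group means of 6.16 to 6.61 in all 6 supporting groups. In limma an adjusted p (Benjamini-Hochberg, over 17571 genes) under 0.05 counted as a call, and differences are log2 values ± SE. In bulk samples fewer cells of a type and less RNA per cell cannot be told apart.

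The promoter letters of 3 members are shown because Hmgcs1 held the only sterol response element core among the members' windows, and because Idi1 and Nsdhl had the widest spread of group means among the synthesis genes, 2.94 and 2.30 on the log2 scale. Each window is RefSeq sequence of GRCm38.p6, 300 bases from 250 before to 50 after the transcription start, on the plus strand, 5′ to 3′. They are chr13:119690101-119690400 for Hmgcs1, chr13:8885356-8885655 for Idi1 and chrX:72918271-72918570 for Nsdhl. Capitals mark the searched motifs, read on both strands: the sterol response element core TCACNCCAC and the CCAAT box, which reads ATTGG where it lies on the minus strand and is bound by the factor NF-Y, a partner of SREBP.
Hmgcs1: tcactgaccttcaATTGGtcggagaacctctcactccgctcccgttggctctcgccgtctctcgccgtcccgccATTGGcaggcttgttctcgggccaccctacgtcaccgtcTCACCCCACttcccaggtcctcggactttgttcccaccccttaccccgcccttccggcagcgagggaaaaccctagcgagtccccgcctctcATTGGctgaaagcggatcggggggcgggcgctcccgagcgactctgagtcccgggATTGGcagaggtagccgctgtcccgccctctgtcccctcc
Idi1: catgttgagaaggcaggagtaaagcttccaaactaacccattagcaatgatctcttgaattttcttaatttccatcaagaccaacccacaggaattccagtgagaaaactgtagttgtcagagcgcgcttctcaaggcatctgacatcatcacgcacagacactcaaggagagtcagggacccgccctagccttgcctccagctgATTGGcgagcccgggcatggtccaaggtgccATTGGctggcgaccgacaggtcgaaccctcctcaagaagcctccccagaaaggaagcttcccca
Nsdhl: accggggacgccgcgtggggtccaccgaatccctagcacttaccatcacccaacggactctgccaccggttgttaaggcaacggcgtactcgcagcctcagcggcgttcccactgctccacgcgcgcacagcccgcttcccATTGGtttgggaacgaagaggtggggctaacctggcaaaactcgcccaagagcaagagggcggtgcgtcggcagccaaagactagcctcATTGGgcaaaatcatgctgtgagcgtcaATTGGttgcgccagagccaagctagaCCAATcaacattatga

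Windows were found for 23 of the 31 members, 31 windows in all, and some windows of 1 gene overlap. The core TCACNCCAC was in 1 of 31 (3.23%), at position -133 of Hmgcs1 counted from the start, and in 408 of 32851 windows of all genes (1.24%). A CCAAT box was in 22 of 31 member windows (71%), belonging to 21 members, and in 12289 of all windows (37.4%). Hmgcs1 had 4 CCAAT boxes, Idi1 had 2, at positions -43 and -12, and Nsdhl had 4. The 2 motifs do not overlap in the Hmgcs1 window. A match describes these letters and is not a binding site.

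Most members were higher in germ cells than in supporting cells. Averaged over stages and sexes, 20 of the 31 were called higher in germ cells, 5 lower and 6 were not called, with a median difference of 0.44 against 0.08 over all genes tested. Of all genes 53.2% were called in this comparison, so a call by itself sets no member apart. All 11 enzymes from squalene to cholesterol were among the higher ones, as were 3 of 7 mevalonate and isoprenoid enzymes, 2 of 5 regulators, 3 of 5 transport genes and 1 of 3 fatty acid enzymes. The 5 lower members were Scd2, Abca1, Npc2, Insig2 and Scap. Every called difference ran the same way with quantile normalization and with median centring, where Mvd, at 0.18 ± 0.08 (adjusted p = 0.0435), was no longer called, nor was Sc5d with quantile normalization. Mvd was also lost when any 1 of 16 of the 35 arrays was left out (0.15 to 0.18 with adjusted p of 0.0551 to 0.135). Over all genes the split was 5785 higher and 3560 lower as deposited. Quantile normalization gave 4366 higher and 5271 lower, and median centring 4871 higher and 4729 lower. Summed endothelial markers (Pecam1, Cdh5, Kdr, Tek) were higher in germ than in supporting arrays at each stage in both sexes. In XY they were 10.43 to 11.02 against 8.09 to 8.43 at TS13, and 9.23 to 9.98 against 8.12 to 8.29 at TS34. A sum can be carried by 1 gene, and the part of these markers in the member differences was not tested.

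**Figure D1:**
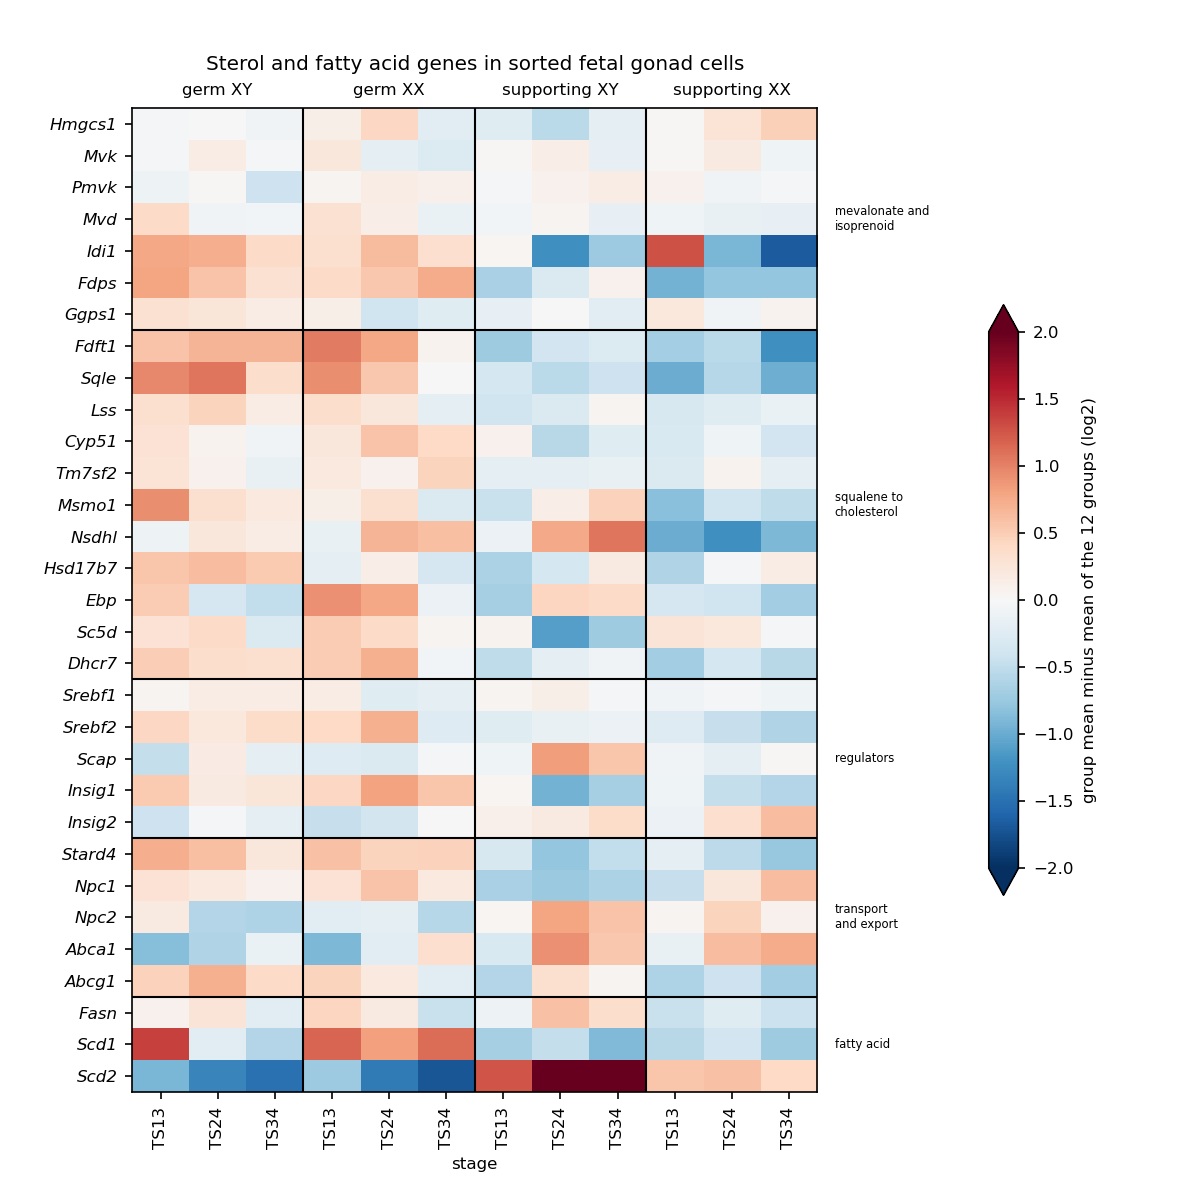
Group means of the 31 measured genes in the 12 groups, as the difference from each gene's mean over the groups on the log2 scale (colour, red above and blue below, ends of the scale at 2), with rows ordered by role and columns by cell type, sex and stage. Scd2 is blue in all 6 germ groups and red in all 6 supporting groups, Sqle and Fdft1 show the opposite in all groups but germ XX TS34, where both sit near 0, and Idi1 is high in supporting XX cells at TS13 alone among supporting groups.

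The mevalonate and isoprenoid enzymes split. Fdps, which joins isoprenoid units into farnesyl diphosphate, was 10.34, 9.78 and 10.54 at TS13, 9.61, 10.17 and 10.23 at TS24, and 9.50, 9.85 and 9.88 at TS34 in XY germ cells, and 9.99, 9.82 and 9.65 at TS13, 9.87 and 10.08 at TS24, and 10.22, 10.44 and 9.83 at TS34 in XX germ cells. It was 8.82, 8.75 and 8.79 at TS13, 9.22, 9.10 and 9.14 at TS24, and 9.51, 9.40 and 9.64 at TS34 in XY supporting cells, and 8.28, 8.39 and 8.78 at TS13, 8.96, 8.84 and 8.17 at TS24, and 8.61, 8.94 and 8.43 at TS34 in XX supporting cells. All but 2 of 17 germ arrays lay above every supporting array, and the highest supporting arrays were those of XY cells at TS34. On average Fdps was higher in germ cells by 1.11 ± 0.09 (adjusted p = 8.23e-16), 2.16-fold. Idi1, the isomerase that makes the active isoprenoid unit, was 9.08, 8.83 and 9.34 at TS13, 8.70, 9.31 and 9.09 at TS24, and 8.22, 9.01 and 8.85 at TS34 in XY germ cells, and 8.31, 8.79 and 8.75 at TS13, 9.11 and 8.75 at TS24, and 9.21, 8.14 and 8.57 at TS34 in XX germ cells. It was 8.24, 8.27 and 8.52 at TS13, 7.15, 6.62 and 7.47 at TS24, and 7.56, 7.34 and 7.83 at TS34 in XY supporting cells, and 9.57, 9.59 and 9.58 at TS13, 6.85, 8.07 and 7.24 at TS24, and 6.91, 6.27 and 6.75 at TS34 in XX supporting cells. The 3 XX supporting arrays at TS13 were the highest Idi1 values of the series, above every germ array, and the XX supporting arrays at TS34 were among the lowest. The mean difference was 1.06 ± 0.11 (adjusted p = 1.33e-12). Mvd, which makes the first isoprenoid unit, had the smallest called difference. Hmgcs1, which makes the precursor of mevalonate (0.06 ± 0.10, adjusted p = 0.629), and Mvk and Pmvk, the kinases after it (-0.04 and -0.06), were not called. Ggps1, which makes the prenyl group for protein anchoring, was not called either (0.05).

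The 11 enzymes from squalene onward were called higher in germ cells on average over stages and sexes, not in every group. Germ means lay below those of supporting cells of the same sex and stage for Ebp and Nsdhl in XY at TS24 and TS34, Msmo1 in XY at TS34, and Hsd17b7 and Lss in XX at TS34. Sqle, the epoxidase that is a rate-controlling step of the later pathway, was 10.45, 10.16 and 10.73 at TS13, 10.40, 10.96 and 10.30 at TS24, and 9.65, 9.82 and 10.08 at TS34 in XY germ cells, and 10.65, 10.29 and 10.32 at TS13, 10.01 and 10.05 at TS24, and 9.87, 9.43 and 9.23 at TS34 in XX germ cells. It was 9.39, 8.84 and 9.20 at TS13, 9.44, 8.52 and 8.91 at TS24, and 9.04, 9.06 and 9.13 at TS34 in XY supporting cells, and 8.60, 8.52 and 8.38 at TS13, 9.08, 8.62 and 9.04 at TS24, and 8.74, 8.38 and 8.43 at TS34 in XX supporting cells. The 2 germ arrays inside the supporting range were both XX at TS34. Sqle was higher in germ cells by 1.28 ± 0.09 (adjusted p = 5.44e-18), 2.43-fold. Fdft1, squalene synthase, was 10.53, 10.58 and 9.99 at TS13, 10.75, 10.25 and 10.45 at TS24, and 10.54, 10.29 and 10.60 at TS34 in XY germ cells, and 11.14, 10.70 and 10.67 at TS13, 10.77 and 10.39 at TS24, and 9.97, 9.84 and 9.79 at TS34 in XX germ cells. It was 9.67, 9.54 and 8.05 at TS13, 9.96, 9.31 and 8.99 at TS24, and 9.32, 9.48 and 9.80 at TS34 in XY supporting cells, and 8.84, 9.62 and 8.89 at TS13, 9.60, 9.19 and 8.98 at TS24, and 9.01, 8.68 and 8.01 at TS34 in XX supporting cells. Fdft1 overlapped between cell types on 2 germ arrays, again XX at TS34, and was higher in germ cells by 1.27 ± 0.12 (adjusted p = 7.85e-14). Its second probe set had group means of 8.44 to 9.51 in germ cells and 7.13 to 8.26 in supporting cells. Dhcr7, the reductase of the last step, was higher by 0.78 ± 0.09 (adjusted p = 1.56e-10). Between them, Msmo1 (C4 demethylation) was higher by 0.53, Cyp51 (lanosterol demethylase) by 0.49, Nsdhl by 0.47, Hsd17b7 (both also C4 demethylation) by 0.44, Sc5d (C5 desaturase) by 0.44, Lss (the cyclase that forms lanosterol) by 0.43, Ebp (sterol isomerase) by 0.42 and Tm7sf2 (C14 reductase) by 0.32, all with germ and supporting arrays that overlapped.

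**Figure D2:**
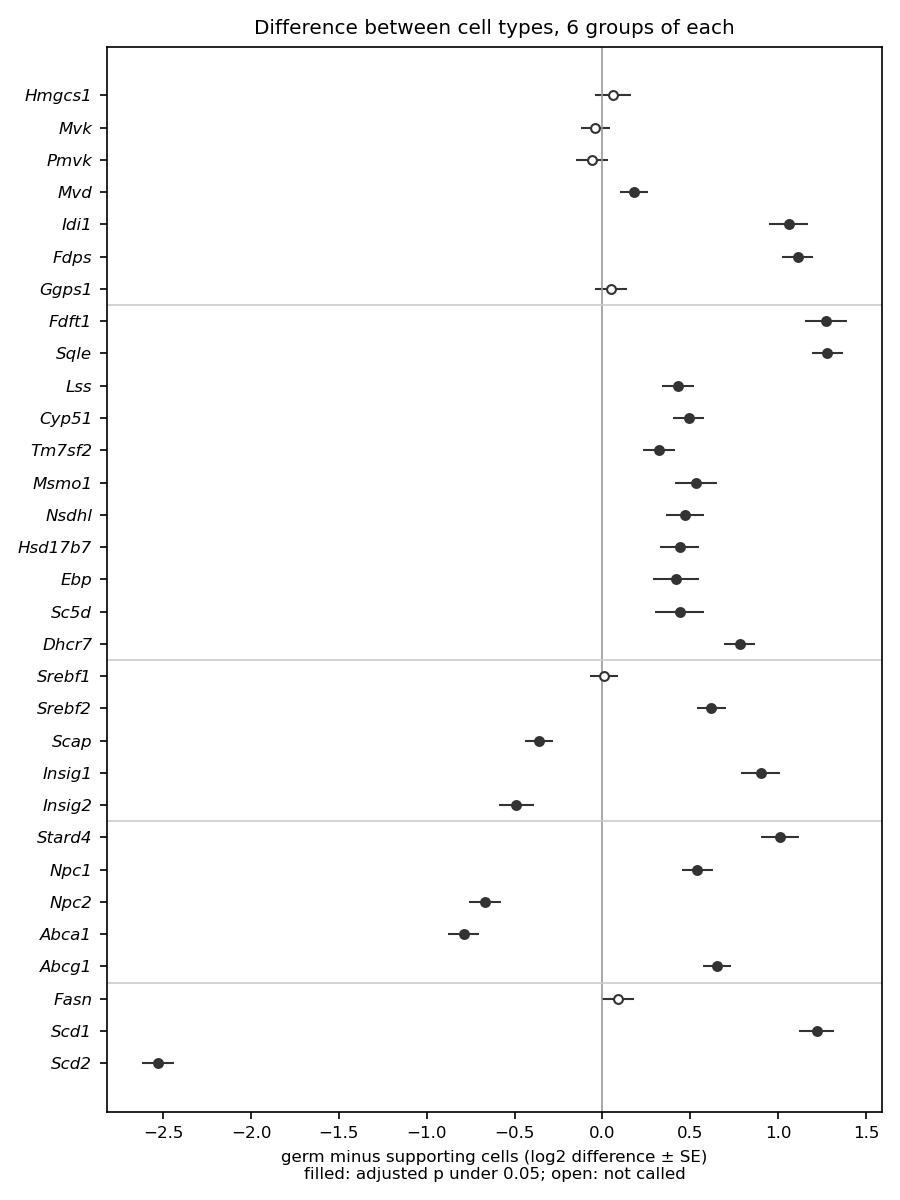
Difference between germ and supporting cells for each of the 31 genes, averaged over stages and sexes (log2, points, with SE bars), grouped by role from the mevalonate steps at the top to the fatty acid enzymes at the bottom; filled points passed adjusted p under 0.05. Points run from -2.53 for Scd2 to 1.28 for Sqle, and all 11 genes from Fdft1 to Dhcr7 sit right of 0.

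Among the regulators, Srebf2, whose factor acts mainly on cholesterol genes, was higher in germ cells by 0.62 ± 0.08 (adjusted p = 7.64e-09), with values from 8.03 to 9.28 with a median of 8.92 on germ arrays, and from 7.83 to 8.67 with a median of 8.20 on supporting arrays. Srebf1, whose factor acts more on fatty acid genes, did not pass the test (0.01 ± 0.08, adjusted p = 0.907) and had the narrowest range of group means of all members, 0.40. Insig1, one of the proteins that hold Scap back and itself a SREBP target, was 10.11, 9.12 and 10.17 at TS13, 9.22, 9.60 and 9.56 at TS24, and 9.24, 9.89 and 9.45 at TS34 in XY germ cells, and 9.63, 9.90 and 9.58 at TS13, 10.30 and 9.87 at TS24, and 9.58, 10.33 and 9.58 at TS34 in XX germ cells. It was 9.15, 9.34 and 9.47 at TS13, 8.20, 8.60 and 8.21 at TS24, and 8.40, 8.56 and 8.89 at TS34 in XY supporting cells, and 8.85, 9.71 and 9.05 at TS13, 9.34, 8.87 and 8.20 at TS24, and 8.63, 8.57 and 8.89 at TS34 in XX supporting cells. Every germ group mean of Insig1 lay above every supporting group mean, but single arrays overlapped. The 2 Insig genes differed in opposite directions, Insig1 by 0.90 ± 0.11 (adjusted p = 1.45e-10) and Insig2 by -0.49 ± 0.10 (adjusted p = 1.68e-05). Scap was lower in germ cells by a smaller amount (-0.36 ± 0.08, adjusted p = 0.000207).

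Transport genes also went both ways. Stard4, a sterol carrier protein of the cytosol, was higher in germ cells by 1.01 ± 0.11 (adjusted p = 4.61e-12), and 16 of 17 germ arrays lay above every supporting array. Npc1 and Npc2 together move cholesterol out of lysosomes, and Npc1 was higher by 0.54 ± 0.09 (adjusted p = 1.34e-06) while Npc2 was lower, at -0.67 ± 0.09 (adjusted p = 2.49e-08). The exporter Abcg1 was higher by 0.65 ± 0.08 (adjusted p = 7.28e-10). The exporter Abca1 was 7.12, 6.69 and 7.26 at TS13, 7.12, 7.22 and 7.50 at TS24, and 7.50, 7.64 and 8.08 at TS34 in XY germ cells, and 6.95, 6.98 and 6.98 at TS13, 7.09 and 8.20 at TS24, and 7.97, 8.45 and 8.21 at TS34 in XX germ cells. It was 7.59, 7.44 and 7.68 at TS13, 8.64, 9.10 and 8.63 at TS24, and 8.41, 8.45 and 8.40 at TS34 in XY supporting cells, and 7.70, 7.79 and 7.66 at TS13, 8.92, 8.54 and 8.01 at TS24, and 8.54, 8.57 and 8.74 at TS34 in XX supporting cells. Its values at TS13 were lower than those at TS34 in all 4 combinations of cell type and sex, array by array. Abca1 was lower in germ cells, at -0.79 ± 0.09 (adjusted p = 1.49e-10).

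The 2 stearoyl-CoA desaturases, which put the double bond into stearate and lie together on chromosome 19, showed opposite patterns. Scd2 had the widest range of group means of all members, 4.45. Scd2 was 8.48, 8.31 and 8.33 at TS13, 7.94, 7.93 and 8.05 at TS24, and 7.54, 7.75 and 8.07 at TS34 in XY germ cells, and 8.84, 8.75 and 8.08 at TS13, 7.82 and 7.92 at TS24, and 7.65, 7.75 and 7.35 at TS34 in XX germ cells. It was 10.49, 10.47 and 10.66 at TS13, 12.40, 11.65 and 12.05 at TS24, and 11.22, 11.33 and 11.47 at TS34 in XY supporting cells, and 9.80, 9.91 and 9.81 at TS13, 9.94, 9.78 and 9.93 at TS24, and 10.22, 9.59 and 9.27 at TS34 in XX supporting cells. No germ array reached any supporting array, and Scd2 was lower in germ cells, at -2.53 ± 0.09 (adjusted p = 1.47e-30), 5.78-fold. Scd1 was 7.41, 7.48 and 7.74 at TS13, 5.93, 6.28 and 5.65 at TS24, and 5.24, 5.55 and 6.00 at TS34 in XY germ cells, and 8.04, 7.34 and 6.68 at TS13, 7.50 and 6.50 at TS24, and 7.67, 7.02 and 7.22 at TS34 in XX germ cells. It was 5.51, 5.50 and 5.54 at TS13, 6.00, 5.52 and 5.58 at TS24, and 5.35, 5.27 and 5.26 at TS34 in XY supporting cells, and 5.48, 5.85 and 5.57 at TS13, 6.07, 5.62 and 5.73 at TS24, and 5.79, 5.11 and 5.47 at TS34 in XX supporting cells. The 5 germ arrays inside the supporting range were all XY, at TS24 or TS34, and the other 12 lay above every supporting array. The mean difference was 1.22 ± 0.10 (adjusted p = 5.71e-15), 2.34-fold. Scd1 was the only member under the 25th percentile of an array anywhere, which 16 of 17 germ and 16 of 18 supporting arrays exceeded, so its lowest values lie near the bottom of the scale. Fasn, fatty acid synthase, did not pass the test (0.09 ± 0.09, adjusted p = 0.413).

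**Figure D3:**
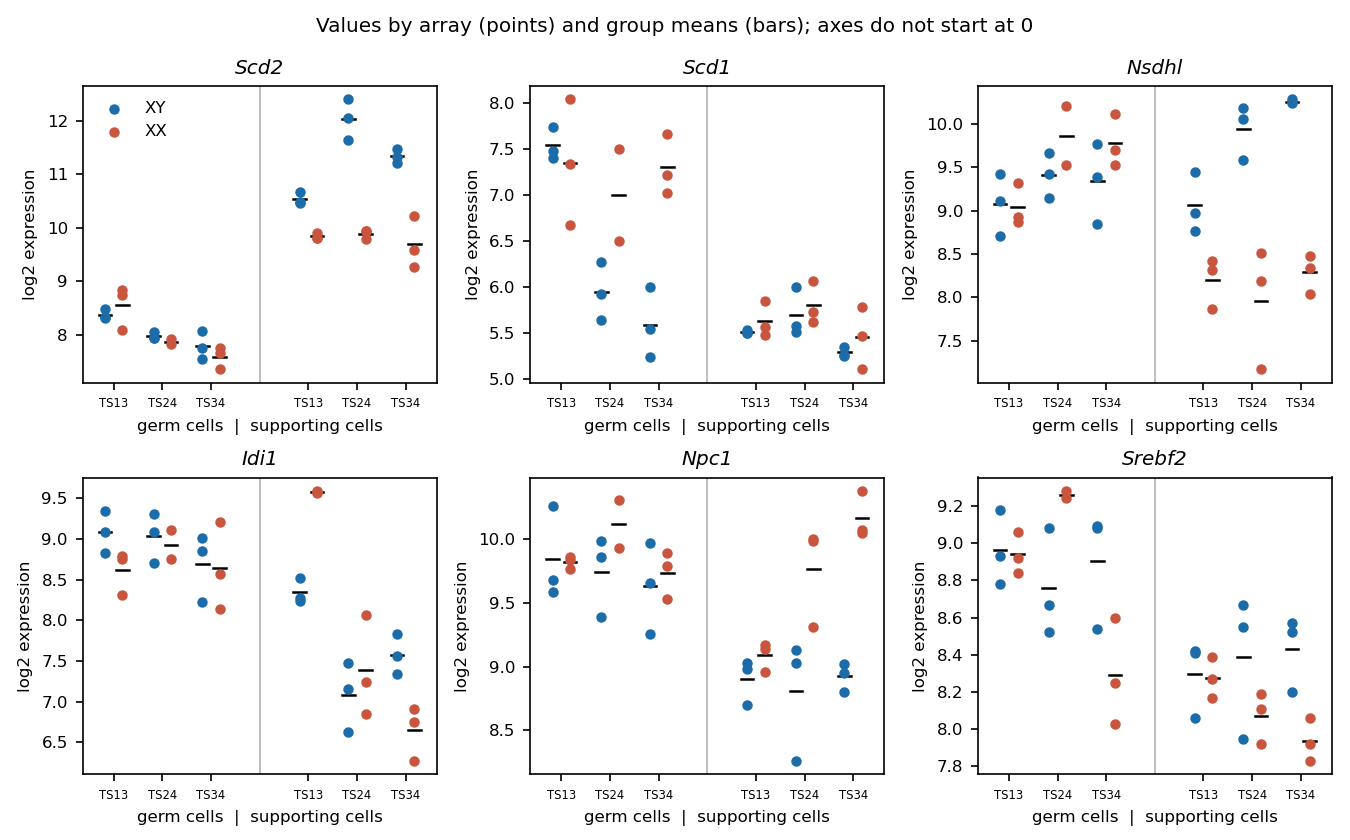
Log2 expression of 6 genes on each array (points; XY blue, left of XX red) with group means (bars), germ cells left and supporting cells right of the line in each panel, stages in order, vertical axes not starting at 0. Scd2 in germ cells never exceeds 8.84 and in supporting cells never falls under 9.27, Scd1 is between 5.24 and 6.28 in XY germ cells at TS24 and TS34, Nsdhl separates the sexes in supporting cells at TS24 and TS34, and Npc1 does so in the other direction.

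Few members were called between the sexes in germ cells, and Scd1 was the one called at 2 stages. At TS13 none of the 31 members was called in limma, where 0.0285% of all genes were called and 554 genes had an unadjusted p under 0.05. The 31 members not called ran from -0.47 to 0.82, with Hmgcs1 at -0.15, Sqle at 0.03, Srebf1 at -0.08, Srebf2 at 0.02, Insig1 at 0.10, Scd1 at 0.19, Scd2 at -0.18 and Abca1 at 0.06. At TS24 only Scd1 was called, lower in XY, at -1.05 ± 0.28 (adjusted p = 0.0302), and 1.96% of all genes were called. The 3 XY arrays all lay below both XX arrays. The 30 members not called ran from -1.11 to 0.65, with Hmgcs1 at -0.42, Sqle at 0.53, Srebf1 at 0.40, Srebf2 at -0.50, Insig1 at -0.62, Scd2 at 0.10 and Abca1 at -0.36. Without XX replicate 1, XY replicate 1 or XY replicate 3 the call was lost (-1.04 to -0.55 with adjusted p of 0.0727 to 0.402), and with the library of somatic profile included 2 members were called. At TS34 Scd1 was lower in XY, at -1.71 ± 0.25 (adjusted p = 1.27e-06), 3.27-fold, with every XY array below every XX array. Summed supporting cell markers (Wt1, Gata4, Kitl, Nr5a1) were 8.72 to 9.22 in XY and 8.70 to 9.16 in XX germ arrays at TS34.

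At TS34 3 further members were called in germ cells, all higher in XY, where 10.5% of all genes were called. They were Hsd17b7 at 0.85 ± 0.26 (adjusted p = 0.0257), Srebf2 at 0.61 ± 0.20 (adjusted p = 0.0384) and Abcg1 at 0.58 ± 0.19 (adjusted p = 0.0416). Srebf2 was 8.54, 9.08 and 9.09 in XY and 8.60, 8.03 and 8.25 in XX germ cells, so the lowest XY array lay below the highest XX array. Hsd17b7 was 8.04, 8.85 and 8.72 in XY and 8.25, 7.69 and 7.14 in XX germ cells, which also overlapped, and Abcg1 was 8.18, 8.11 and 8.48 in XY and 8.01, 7.66 and 7.35 in XX germ cells, which did not. These 3 calls were lost in some fits with 1 array fewer. Without XX replicate 2 or 3, or XY replicate 2 or 3, Hsd17b7 had 0.57 to 0.84 with adjusted p of 0.0716 to 0.303 and Srebf2 0.48 to 0.59 with adjusted p of 0.124 to 0.241, and without XX replicate 2 or 3, or XY replicate 3, Abcg1 had 0.42 to 0.58 with adjusted p of 0.108 to 0.318. None of the 3 was called with all 36 arrays. With quantile normalization 3 members were called higher and 4 lower, and with median centring 3 higher and 3 lower. The 27 members not called ran from -0.60 to 0.61, with Hmgcs1 at 0.16, Sqle at 0.34, Srebf1 at 0.34, Insig1 at -0.30, Scd2 at 0.20 and Abca1 at -0.47.

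In supporting cells members differed between the sexes from TS13 on, Nsdhl and Scd2 at all 3 stages. At TS13, when both sexes came from the same mouse line, 2 of 31 members were higher in XY and 1 lower, and 3.78% of all genes were called. Idi1 was lower in XY, at -1.23 ± 0.25 (adjusted p = 0.000956), with the XY arrays at 8.24, 8.27 and 8.52 and the XX arrays at 9.57, 9.59 and 9.58. Its second probe set had means of 7.46 ± 0.40 in XY and 8.66 ± 0.09 in XX (SD, n = 3 each). Nsdhl, encoded on the X chromosome, was higher in XY by 0.86 ± 0.26 (adjusted p = 0.0427), and Scd2 by 0.70 ± 0.21 (adjusted p = 0.0443). Neither gene overlapped between the sexes at this stage. The 28 members not called ran from -0.37 to 0.64, with Hmgcs1 at -0.27, Sqle at 0.64, Srebf1 at 0.12, Srebf2 at 0.02, Insig1 at 0.12, Scd1 at -0.11 and Abca1 at -0.15. The Scd2 call was nevertheless lost whichever of the 6 arrays was left out (0.64 to 0.73 with adjusted p of 0.0841 to 0.207), and that of Nsdhl without XX replicate 2 or 3 or XY replicate 1 or 2 (0.67 to 0.92 with adjusted p of 0.0682 to 0.315).

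At TS24 5 members were higher in XY supporting cells and 3 lower, and 15.3% of all genes were called. From this stage the XY cells came from the Sox9 line and the XX cells from the Sry line, so sex and line cannot be told apart. Scd2 was higher by 2.15 ± 0.21 (adjusted p = 7.18e-12), 4.43-fold, and Nsdhl by 1.98 ± 0.26 (adjusted p = 1.96e-08), 3.95-fold. Nsdhl was 8.97, 9.44 and 8.77 at TS13, 10.18, 9.58 and 10.05 at TS24, and 10.24, 10.28 and 10.25 at TS34 in XY supporting cells, and 8.42, 7.87 and 8.32 at TS13, 8.19, 7.17 and 8.51 at TS24, and 8.34, 8.48 and 8.04 at TS34 in XX supporting cells. The XY arrays lay above every XX array at each of the 3 stages. In germ cells Nsdhl was 9.42, 9.11 and 8.71 at TS13, 9.66, 9.14 and 9.42 at TS24, and 8.85, 9.77 and 9.39 at TS34 in XY, and 8.87, 8.92 and 9.32 at TS13, 9.53 and 10.20 at TS24, and 10.11, 9.70 and 9.53 at TS34 in XX, and no sex difference of it was called there. Scap was higher by 1.02 ± 0.20 (adjusted p = 0.000105), Fasn by 0.83 ± 0.21 (adjusted p = 0.00369) and Abcg1 by 0.74 ± 0.19 (adjusted p = 0.00414). Lower in XY were Sc5d at -1.31 ± 0.34 (adjusted p = 0.00353), Npc1 at -0.96 ± 0.22 (adjusted p = 0.00093) and Hmgcs1 at -0.81 ± 0.24 (adjusted p = 0.0139). The 23 members not called ran from -0.47 to 0.82, with Sqle at 0.04, Srebf1 at 0.15, Srebf2 at 0.32, Insig1 at -0.47, Scd1 at -0.10 and Abca1 at 0.30.

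Sc5d was 8.35, 7.71 and 7.67 at TS13, 6.60, 6.52 and 7.11 at TS24, and 7.32, 6.79 and 7.29 at TS34 in XY supporting cells, and 7.38, 8.82 and 8.12 at TS13, 7.87, 8.91 and 7.38 at TS24, and 8.18, 7.81 and 7.42 at TS34 in XX supporting cells. Its arrays of the 2 sexes do not overlap at TS24 and do so at TS13, while at TS34 all 3 XY arrays lay below all 3 XX arrays without a call (-0.67 ± 0.34, adjusted p = 0.228). In germ cells Sc5d was 8.50, 8.23 and 7.65 at TS13, 8.23, 8.15 and 8.28 at TS24, and 6.74, 8.37 and 7.53 at TS34 in XY, and 8.31, 8.78 and 7.96 at TS13, 8.70 and 7.76 at TS24, and 8.63, 7.39 and 7.65 at TS34 in XX. The calls of 3 genes at TS24 were lost in some fits with 1 array fewer. Without XY replicate 1 Fasn had 0.51 with adjusted p = 0.133, and without XX replicate 2 Sc5d had -0.88 with adjusted p = 0.0956. Without XX replicate 1 or 2 or XY replicate 2 Hmgcs1 had -0.77 to -0.64 with adjusted p of 0.0532 to 0.105.

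At TS34 9 members were higher in XY supporting cells and 1 lower, where 14% of all genes were called. Besides Nsdhl at 1.97 ± 0.26 (adjusted p = 2.47e-08) and Scd2 at 1.65 ± 0.21 (adjusted p = 1.42e-08), 5 synthesis enzymes were higher in XY. They were Ebp at 1.08 ± 0.31 (adjusted p = 0.0114), Fdft1 at 0.97 ± 0.28 (adjusted p = 0.0114), Msmo1 at 0.96 ± 0.28 (adjusted p = 0.0109), Idi1 at 0.93 ± 0.25 (adjusted p = 0.00692) and Fdps at 0.86 ± 0.21 (adjusted p = 0.00269). Fasn at 0.78 ± 0.21 (adjusted p = 0.00695) and Abcg1 at 0.76 ± 0.19 (adjusted p = 0.00354) were also higher, and Npc1 was lower at -1.24 ± 0.22 (adjusted p = 2.04e-05). Idi1 was lower in XY at TS13 and higher at TS34. Npc1 was 9.03, 8.98 and 8.70 at TS13, 9.03, 8.26 and 9.13 at TS24, and 8.95, 8.80 and 9.02 at TS34 in XY supporting cells, and 9.14, 9.17 and 8.96 at TS13, 10.00, 9.99 and 9.31 at TS24, and 10.38, 10.07 and 10.05 at TS34 in XX supporting cells. The sexes did not overlap for Npc1 at TS24 and TS34. The 21 members not called ran from -0.67 to 0.56, with Hmgcs1 at -0.66, Sqle at 0.56, Srebf1 at 0.06, Srebf2 at 0.50, Insig1 at -0.08, Scd1 at -0.17 and Abca1 at -0.20.

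Ebp, encoded on the X chromosome like Nsdhl, was 5.84, 6.14 and 6.29 at TS13, 7.13, 6.34 and 8.06 at TS24, and 7.09, 7.00 and 7.33 at TS34 in XY supporting cells, and 6.32, 6.25 and 6.69 at TS13, 6.07, 7.12 and 5.88 at TS24, and 6.14, 6.05 and 5.99 at TS34 in XX supporting cells. In germ cells it was 7.07, 7.00 and 7.71 at TS13, 6.36, 5.99 and 6.88 at TS24, and 5.71, 6.85 and 6.20 at TS34 in XY, and 7.22, 7.61 and 8.20 at TS13, 7.03 and 8.02 at TS24, and 7.13, 6.27 and 6.48 at TS34 in XX. The 3 XY supporting arrays at TS34 lay close together, above the 3 XX arrays, while at TS24 the sexes overlapped. Msmo1 was 8.36, 8.76 and 7.39 at TS13, 8.85, 8.50 and 8.91 at TS24, and 9.12, 8.98 and 9.16 at TS34 in XY supporting cells, and 7.61, 8.14 and 7.59 at TS13, 8.32, 8.12 and 8.24 at TS24, and 8.30, 8.17 and 7.89 at TS34 in XX supporting cells. In germ cells Msmo1 was 9.84, 8.51 and 10.32 at TS13, 8.65, 9.04 and 9.12 at TS24, and 8.43, 8.97 and 9.03 at TS34 in XY, and 8.59, 9.10 and 8.53 at TS13, 9.18 and 8.73 at TS24, and 8.30, 8.53 and 8.18 at TS34 in XX. Its sexes overlapped in supporting cells at TS13 alone. Leaving out 1 array ended 5 of these calls in some fits. Without XX replicate 3 Fasn had 0.65 with adjusted p = 0.077 and Msmo1 0.85 with adjusted p = 0.0704, and without XY replicate 3 Ebp had 0.99 with adjusted p = 0.0603. Without XX replicate 3 or XY replicate 3 Fdft1 had 0.69 to 0.83 with adjusted p of 0.0815 to 0.167, and without XX replicate 2 or XY replicate 3 Idi1 had 0.75 to 0.81 with adjusted p of 0.0599 to 0.0843.

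**Figure D4:**
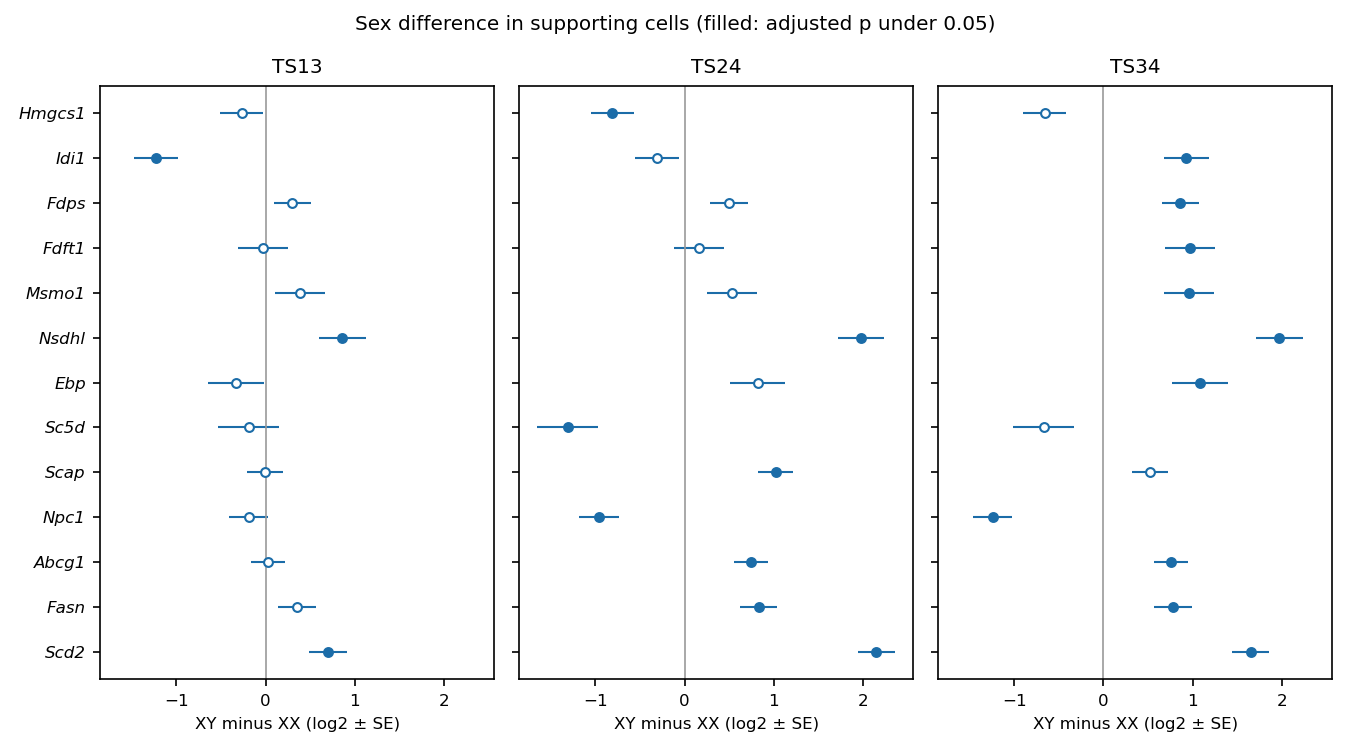
XY minus XX in supporting cells at TS13, TS24 and TS34 for the 13 members called at any of these stages (log2 difference, points, with SE bars; filled where adjusted p was under 0.05). Nsdhl is right of 0 at each stage, from 0.86 at TS13 to 1.97 at TS34, Npc1 reaches -1.24 at TS34, and Idi1 is at -1.23 at TS13 and 0.93 at TS34.

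Markers of steroid-making cells were higher in XY than in XX supporting cells at TS34, and their summed level overlapped between the sexes at TS13 and TS24. Of 5 listed genes 4 were measured (Cyp11a1, Star, Hsd3b1 and Cyp17a1), and Insl3 was not. Their summed level was 8.16 to 8.61 in XY and 8.25 to 9.02 in XX arrays at TS13. At TS24 it was 8.16 to 8.60 in XY and 7.65 to 8.21 in XX. At TS34 it was 9.05 to 9.37 in XY and 7.74 to 7.79 in XX. At that stage Cyp17a1 was higher in XY by 1.94 ± 0.23 (adjusted p = 1.99e-09) and Cyp11a1, which makes the first steroid from cholesterol, by 1.65 ± 0.23 (adjusted p = 1.42e-07), with Star at 1.36 ± 0.21 (adjusted p = 1.53e-06) and Hsd3b1 at 0.61 ± 0.21 (adjusted p = 0.0392). At TS13 the list split, with Cyp11a1 lower in XY, at -0.97 ± 0.23 (adjusted p = 0.00499), and Star at 0.63, Hsd3b1 at 0.26 and Cyp17a1 at means of 5.24 in XY and 5.24 in XX, none of these 3 called. At TS24 Star had a mean of 7.46 in XY (7.30 to 7.56) and 6.54 in XX (6.07 to 6.82), without overlap. Hsd3b1 had means of 5.65 in XY and 5.24 in XX, Cyp17a1 5.79 and 5.45, and Cyp11a1 5.87 and 6.03. The part of these markers in the differences of the sterol genes was not tested. Summed stromal markers (Pdgfra, Dcn, Col1a1, Col3a1) were 10.21 to 10.45 in XY and 9.46 to 9.56 in XX supporting arrays at TS13, and 9.23 to 9.35 in XY and 9.19 to 9.27 in XX at TS34. At TS13 Pdgfra alone of the 4 was called, higher in XY by 1.80 ± 0.25 (adjusted p = 1.24e-06), while Dcn was at -0.18, Col1a1 at -0.03 and Col3a1 at -0.03. Summed globin and heme markers (Hbb-y, Hba-x, Hbb-bh1, Alas2) varied within some groups. In supporting arrays at TS13 they were 8.92 to 11.51 in XY and 8.87 to 8.99 in XX. At TS24 they were 9.98 to 11.93 in XY and 8.44 to 11.11 in XX, and at TS34 9.68 to 9.90 in XY and 8.40 to 10.60 in XX.

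Few members were called across stages in germ cells. In XY germ cells Scd1 alone was called from TS13 to TS24, lower at TS24, at -1.59 ± 0.25 (adjusted p = 3.06e-05), 3.01-fold, where 1.5% of all genes were called. The 30 members not called ran from -0.85 to 0.63, with Hmgcs1 at 0.03, Sqle at 0.11, Srebf1 at 0.09, Srebf2 at -0.21, Insig1 at -0.34, Scd2 at -0.40 and Abca1 at 0.26. In limma no member was called in XY germ cells between TS24 and TS34, where 2.73% of all genes were called and 2180 had an unadjusted p under 0.05. The 31 members not called ran from -0.70 to 0.46, with Hmgcs1 at -0.06, Sqle at -0.70, Srebf1 at -0.01, Srebf2 at 0.15, Insig1 at 0.07, Scd1 at -0.36, Scd2 at -0.18 and Abca1 at 0.46. Sqle came nearest to a call (adjusted p = 0.0648). In XX germ cells limma called no member between TS13 and TS24, where 1.21% of all genes were called and 2096 had an unadjusted p under 0.05. The 31 members not called ran from -0.69 to 0.83, with Hmgcs1 at 0.30, Sqle at -0.39, Srebf1 at -0.39, Srebf2 at 0.32, Insig1 at 0.38, Scd1 at -0.35, Scd2 at -0.69 and Abca1 at 0.67. From TS24 to TS34 the XX germ cells had Srebf2 lower, at -0.96 ± 0.22 (adjusted p = 0.00377) and Dhcr7 at -0.77 ± 0.25 (adjusted p = 0.0397), and 8.88% of all genes were called with a median of -0.15 over all of them. Srebf2 in XX germ cells was 8.92, 8.84 and 9.06 at TS13, 9.24 and 9.28 at TS24, and 8.60, 8.03 and 8.25 at TS34, and in XY germ cells 8.93, 8.78 and 9.18 at TS13, 9.08, 8.52 and 8.67 at TS24, and 8.54, 9.08 and 9.09 at TS34. Its 2 XX arrays at TS24 were the highest of all. Without XX TS24 replicate 2 Srebf2 had -0.94 with adjusted p = 0.0513. Dhcr7 was lost without that array or without TS34 replicate 2 or 3 (-0.77 to -0.40 with adjusted p of 0.0946 to 0.501), and with quantile normalization or median centring, under each of which 1 member was called higher and 1 lower. The 29 members not called ran from -0.90 to 0.57, with Hmgcs1 at -0.64, Sqle at -0.52, Srebf1 at 0.05, Insig1 at -0.26, Scd1 at 0.30, Scd2 at -0.29 and Abca1 at 0.57.

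In supporting cells every stage call fell between TS13 and TS24. In XX cells Idi1 was lower at TS24, at -2.19 ± 0.25 (adjusted p = 1.38e-08), 4.56-fold, and Abca1 higher by 0.77 ± 0.22 (adjusted p = 0.0335), the 2 called members where 3.37% of all genes were called with a median of 0.11 over all of them. The 29 members not called ran from -0.40 to 0.68, with Hmgcs1 at 0.25, Sqle at 0.42, Srebf1 at 0.03, Srebf2 at -0.20, Insig1 at -0.40, Scd1 at 0.17 and Scd2 at 0.04. In the same XX cells Cyp11a1 was lower at TS24, at -1.80 ± 0.23 (adjusted p = 1.43e-07), and Pdgfra at -1.03 ± 0.25 (adjusted p = 0.0103), while the other 3 steroid-cell and other 3 stromal markers were not called, and the part of these markers in the Idi1 difference was not tested. The Idi1 second probe set had means of 6.69 ± 0.36 at TS24 and 8.66 ± 0.09 at TS13 (SD, n = 3 each). The Abca1 call was lost with any of the 3 TS13 arrays left out, or TS24 replicate 1 or 2 (0.56 to 0.81 with adjusted p of 0.0774 to 0.379), and after quantile normalization or median centring. In XY cells 8 members were higher and 4 lower at TS24, and 16.8% of all genes were called with a median of 0.22 over all genes, a shift that the differences below include and that is 0.01 after quantile normalization. The line changed from Sry to Sox9 between these stages, so stage and line cannot be told apart. Of the stromal markers Pdgfra alone was called, at -2.04 ± 0.25 (adjusted p = 2.64e-08), with Dcn at -0.25, Col1a1 at 0.04 and Col3a1 at 0.08. Cyp11a1 was lower at TS24, at -0.98, and Hsd3b1 higher, at 0.68. The part of these markers in the differences was not tested. Higher were Scd2 by 1.49 ± 0.21 (adjusted p = 3.5e-07), Abca1 by 1.22 ± 0.22 (adjusted p = 4.61e-05), Ebp by 1.09 ± 0.31 (adjusted p = 0.0107), Scap by 0.92 ± 0.20 (adjusted p = 0.000605), Abcg1 by 0.91, Nsdhl by 0.88, Npc2 by 0.76 and Fasn by 0.67. Lower were Idi1 at -1.26 ± 0.25 (adjusted p = 0.000244), Sc5d at -1.17 ± 0.34 (adjusted p = 0.0113), Insig1 at -0.98 ± 0.25 (adjusted p = 0.00397) and Cyp51 at -0.64. The 19 members not called ran from -0.46 to 0.59, with Hmgcs1 at -0.29, Sqle at -0.19, Srebf1 at 0.06, Srebf2 at 0.10 and Scd1 at 0.18. Idi1 was lower at TS24 in both sexes. The line changed in XY and not in XX, and its part in the XY difference cannot be told apart from that of stage.

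Several of these XY calls were lost with 1 array fewer. Ebp had 0.65 to 0.96 with adjusted p of 0.0548 to 0.181 without TS13 replicate 1 or TS24 replicate 3, and Nsdhl 0.73 to 0.76 with adjusted p of 0.0819 to 0.0831 without TS13 replicate 3 or TS24 replicate 1. Npc2 had 0.61 to 0.70 with adjusted p of 0.0627 to 0.0871 without TS13 replicate 1 or 3 or TS24 replicate 2, and Fasn 0.36 to 0.67 with adjusted p of 0.0583 to 0.323 without TS13 replicate 1 or 3 or TS24 replicate 1. Sc5d had -1.10 to -0.95 with adjusted p of 0.0516 to 0.0812 without TS13 replicate 1 or TS24 replicate 1 or 2, and Cyp51 -0.70 to -0.54 with adjusted p of 0.0527 to 0.147 without TS13 replicate 1 or 2 or any TS24 array. Ebp, Npc2, Nsdhl and Fasn also lost the call after quantile normalization, and Nsdhl and Fasn after median centring, with 4 members called higher and 7 lower after quantile normalization and 6 higher and 4 lower after median centring. From TS24 to TS34 limma called no member in XX supporting cells, where 0.643% of all genes were called and 1391 had an unadjusted p under 0.05. The 31 members not called ran from -0.74 to 0.40, with Hmgcs1 at 0.20, Sqle at -0.40, Srebf1 at -0.04, Srebf2 at -0.14, Insig1 at -0.11, Scd1 at -0.35, Scd2 at -0.19 and Abca1 at 0.13. It called none in XY supporting cells either, where 1.06% of all genes were called and 2408 had an unadjusted p under 0.05. The 31 members not called ran from -0.69 to 0.54, with Hmgcs1 at 0.35, Sqle at 0.12, Srebf1 at -0.14, Srebf2 at 0.04, Insig1 at 0.28, Scd1 at -0.41, Scd2 at -0.69 and Abca1 at -0.37.

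Further tests asked whether a difference itself changed between TS13 and TS34. In germ cells the sex difference changed for Scd1 alone, by -1.90 ± 0.35 (adjusted p = 0.00037), and 3.69% of all genes were called. In supporting cells it changed for 4 members, with 4.88% of all genes called: Idi1, Ebp and Scd2 moved toward XY and Npc1 toward XX. The Idi1 change was 2.17 ± 0.36 (adjusted p = 2.32e-05), and its group means were 8.34 ± 0.15 in XY and 9.58 ± 0.01 in XX at TS13, then 7.58 ± 0.24 in XY and 6.64 ± 0.33 in XX at TS34 (SD, n = 3 each). The Npc1 change was -1.06 ± 0.31 (adjusted p = 0.0326), Ebp 1.41 ± 0.44 (adjusted p = 0.0498) and Scd2 0.95 ± 0.30 (adjusted p = 0.0477). The Ebp call was lost under quantile normalization, median centring, no filter, the mean over probe sets and all 36 arrays. That of Scd2 was lost under quantile normalization, all 36 arrays and the replicate block, and that of Npc1 with all 36 arrays. With 1 array fewer Ebp lost its call in 11 of 12 fits, all but that without XY TS13 replicate 3 (1.28 to 1.50 with adjusted p of 0.0562 to 0.136), and Scd2 in 11 of 12, all but that without XX TS34 replicate 1 (0.74 to 1.01 with adjusted p of 0.0554 to 0.25). Npc1 lost it in 7 of 12, those without XX TS13 replicate 1 or 3, XY TS13 replicate 1 or 2, XX TS34 replicate 1, or XY TS34 replicate 1 or 2 (-1.08 to -0.95 with adjusted p of 0.0536 to 0.0958). The 30 members not called in germ cells ran from -0.83 to 1.08, with Hmgcs1 at 0.31, Sqle at 0.31, Srebf1 at 0.42, Srebf2 at 0.59, Insig1 at -0.40, Scd2 at 0.39 and Abca1 at -0.53. The 27 members not called in supporting cells ran from -0.48 to 1.11, with Hmgcs1 at -0.39, Sqle at -0.09, Srebf1 at -0.06, Srebf2 at 0.48, Insig1 at -0.20, Scd1 at -0.05 and Abca1 at -0.05. For Nsdhl the change did not pass (1.11 ± 0.36, adjusted p = 0.0648).

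The difference between germ and supporting cells changed for 4 members in XX, where 10.1% of all genes were called, and for 6 in XY, where 11.2% were called. In XX the Idi1 difference moved by 2.95 ± 0.36 (adjusted p = 2.85e-08), and in germ cells its means were 8.62 ± 0.27 at TS13 and 8.64 ± 0.54 at TS34. Npc1 moved by -1.16 ± 0.31 (adjusted p = 0.00876), Sqle by -0.93 ± 0.30 (adjusted p = 0.0398) and Fasn by -0.89 ± 0.30 (adjusted p = 0.0489). Sqle lost its call under quantile normalization and all 36 arrays, and Fasn under these and no filter. With 1 array fewer Sqle lost it in 8 of 12 fits (-0.98 to -0.79 with adjusted p of 0.0521 to 0.149) and Fasn in 8 of 12 (-0.95 to -0.68 with adjusted p of 0.0569 to 0.205). Both lost it without germ TS13 replicate 1, germ TS34 replicate 2 or 3, any supporting array at TS13, or supporting TS34 replicate 1, and besides these Sqle without supporting TS34 replicate 3 and Fasn without supporting TS34 replicate 2. The 27 members not called ran from -0.89 to 0.66, with Hmgcs1 at -0.79, Srebf1 at -0.32, Srebf2 at -0.31, Insig1 at 0.63, Scd1 at 0.13, Scd2 at -0.82 and Abca1 at 0.34. In XY all 6 moved toward supporting cells: Ebp by -2.06 ± 0.44 (adjusted p = 0.000731), Scd1 by -1.72 ± 0.35 (adjusted p = 0.000394), Msmo1 by -1.66 ± 0.39 (adjusted p = 0.00229), Scd2 by -1.39 ± 0.30 (adjusted p = 0.000663), Npc2 by -1.34 ± 0.32 (adjusted p = 0.00279) and Fdps by -1.21 ± 0.30 (adjusted p = 0.00413). Ebp means were 7.26 ± 0.39 in germ and 6.09 ± 0.23 in supporting cells at TS13, and 6.26 ± 0.57 in germ and 7.14 ± 0.17 in supporting cells at TS34 (SD, n = 3 each). The 25 members not called ran from -0.94 to 0.43, with Hmgcs1 at -0.09, Sqle at -0.53, Srebf1 at 0.15, Srebf2 at -0.20, Insig1 at 0.43 and Abca1 at -0.14. In XX these comparisons stay within 1 line per cell type, and in XY the supporting line changes.

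Of 25 other genes of the pathway, listed by role, 21 were tested. Between cell types 4 were called higher in germ cells and 9 lower, where 53.2% of all genes were called. The higher ones were Elovl6, which lengthens fatty acids (1.31 ± 0.13, adjusted p = 4.35e-13), Tmem97, a sterol-binding protein (1.14), Fntb, a farnesyl transferase subunit (0.50), and Dhdds (0.27). Of 8 fatty acid supply genes 6 were lower in germ cells, as Scd2 was, among them Me1, the malic enzyme that makes NADPH (-2.86 ± 0.09, adjusted p = 1.23e-31), the desaturases Fads1 (-1.35) and Fads2 (-1.14), and Acly, which makes cytosolic acetyl-CoA (-0.57). In supporting cells at TS24 8 of the 21 were called higher in XY and 1 lower (15.3% of all genes called), and at TS34 6 were higher and 1 lower (14% of all genes). At TS34 Me1 was higher by 1.82 ± 0.22 (adjusted p = 5.42e-09), Acss2 by 1.42 ± 0.24 (adjusted p = 9.27e-06), Acly by 1.06 ± 0.18 (adjusted p = 9.88e-06) and the lipoprotein receptor Scarb1 by 0.96 ± 0.23 (adjusted p = 0.00136). Mylip, a liver X receptor target that degrades lipoprotein receptors, was lower, at -1.15 ± 0.23 (adjusted p = 0.000179). In germ cells at TS34, where 10.5% of all genes were called, Elovl6 (0.89) and the SREBP protease Mbtps1 (0.78) were higher in XY, and Acss2 (-1.12) and Acaca (-0.88) lower. None of the 21 was called between the sexes in germ cells at TS13 or TS24.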

How the data were processed

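The authors deposited log2 expression values per probe set, made with RMA per the submitters' processing notes; its version is not given in the sources used here. Array medians ran from 6.412 to 6.841, so the arrays were not on 1 common quantile distribution, and values were used as deposited. Of 35557 probe sets 21789 had 1 gene symbol in the platform annotation, 1621 had several and 12147 were not listed. For 21698 of the 21789 the Entrez ID was found in RefSeq (GRCm38.p6), and the RefSeq symbol was used, whether or not it differed. The probe set with the highest mean stood for a gene. Genes whose value lay above the array's own 25th percentile in 3 or more of 35 arrays were tested (17571 tested, 2367 removed). limma 3.58.1 in R 4.3.3 fitted 1 mean per group with moderated variances, two-sided, and p-values were adjusted by Benjamini-Hochberg over all genes tested, in each of 19 comparisons. The array germ XX TS24 replicate 3 was left out. The script was tested on simulated data. Array number and signal limit the precision. The members, the lists and the tests were chosen with earlier results of these data known. Called members are named with their differences; of those not called, the range and 8 rate-limiting or regulatory genes are given, and values per array are given for the 12 members with the widest range of group means. Alternatives were quantile normalization, median centring, a filter at the 50th percentile, no filter, the mean over probe sets, all 36 arrays, a replicate block, and leaving out each array.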

Additional observations from a re-analysis of the deposited data

Results flagged for a closer look

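For 15 results the difference between 2 effects was itself past the threshold in limma. The sex difference in germ cells, XY minus XX, differed between TS34 and TS13 for Scd1, by -1.90 ± 0.35 (adjusted p = 0.00037) on the log2 scale. In supporting cells the sex difference moved between these stages by 2.17 ± 0.36 for Idi1 (adjusted p = 2.32e-05), by -1.06 ± 0.31 for Npc1 (adjusted p = 0.0326), by 1.41 ± 0.44 for Ebp (adjusted p = 0.0498) and by 0.95 ± 0.30 for Scd2 (adjusted p = 0.0477). Of 7 alternatives 5 ended the call of Ebp (quantile normalization, median centring, no filter, the mean over probe sets and all 36 arrays), 3 that of Scd2 (quantile normalization, all 36 arrays and the replicate block), and 1 that of Npc1 (all 36 arrays). At TS34 the XY and XX supporting cells came from different mouse lines.

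The difference between germ and supporting cells moved between TS13 and TS34 in XX by 2.95 ± 0.36 for Idi1 (adjusted p = 2.85e-08), by -1.16 ± 0.31 for Npc1 (adjusted p = 0.00876), by -0.93 ± 0.30 for Sqle (adjusted p = 0.0398) and by -0.89 ± 0.30 for Fasn (adjusted p = 0.0489). Quantile normalization and all 36 arrays ended the calls of Sqle and Fasn, and no filter also that of Fasn. In XY it moved by -2.06 ± 0.44 for Ebp (adjusted p = 0.000731), by -1.72 ± 0.35 for Scd1 (adjusted p = 0.000394), by -1.66 ± 0.39 for Msmo1 (adjusted p = 0.00229), by -1.39 ± 0.30 for Scd2 (adjusted p = 0.000663), by -1.34 ± 0.32 for Npc2 (adjusted p = 0.00279) and by -1.21 ± 0.30 for Fdps (adjusted p = 0.00413). With all 36 arrays the Scd2 call in XY was lost.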

How the results depend on the processing

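Of 83 calls of a member in a comparison, 71 were kept with quantile normalization, 77 with median centring, 83 with the filter at the 50th percentile, 81 without a filter, 82 with the mean over probe sets and 64 with all 36 arrays, and 0 changed sign under any of these. Over 187 same-numbered pairs of arrays the correlation of deviations ran from -0.51 to 0.52 with a median of -0.01. Of these pairs 31 were over 0.1. The pairs pool all combinations of groups, so this check cannot tell whether replicate numbers paired particular groups. With the replicate block 81 calls were kept, all but Mvd between cell types and Scd2 in the change of the sex difference in supporting cells. Counts of members called between the sexes moved in germ cells at TS24 (1 as reported) to 2 with all 36 arrays and to 2 with the replicate block, and at TS34 (4) to 7 with quantile normalization and 1 with all 36 arrays. In supporting cells at TS13 (3) all 36 arrays gave 1. Between TS13 and TS24 XY germ cells (1) gave 2 with quantile normalization and with median centring, and XX supporting cells (2) gave 1 with each of these and with all 36 arrays. The change of the sex difference gave 2 with quantile normalization and with median centring in germ cells (1), and in supporting cells (4) it gave 2 with quantile normalization and 1 with all 36 arrays. The change of the difference between cell types in XX (4) gave 2 with quantile normalization and with all 36 arrays. The all-array fit adds the array of somatic profile to germ XX TS24, and the cause of the other moves was not tested. Of the 83 calls, 51 were kept both under all 7 alternatives and in every fit with 1 array left out. With each array left out in turn, 1186 of 1310 repeated calls were kept. The counts then ran from 24 to 25 between cell types, from 0 to 1, 0 to 1 and 1 to 4 between the sexes in germ cells at TS13, TS24 and TS34, and from 1 to 2, 7 to 10 and 7 to 10 in supporting cells. Over the steps to TS24 and to TS34 they ran from 0 to 1 and 1 to 4 in XX germ cells, 1 to 3 and 0 to 0 in XY germ cells, 1 to 3 and 0 to 0 in XX supporting cells, and 7 to 12 and 0 to 1 in XY supporting cells. For the changes of differences they ran from 1 to 2 in germ cells and 1 to 3 in supporting cells between the sexes, and from 2 to 5 in XX and 6 to 8 in XY between cell types. Where leaving out an array leaves 1 array in a group, that array is assumed to vary like the other groups.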

Other observations

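Some single arrays stood apart from the other arrays of their group over the 18 measured synthesis enzymes, more than all genes did. In XY supporting cells at TS24 replicate 2 had 9 of 18 more than 0.5 below the mean of the others on the log2 scale, with a median deviation of -0.49 against -0.14 over all genes, 10.6% of which lay below by as much. In XY germ cells at TS34 replicate 1 had 12 of 18 below by that amount, with a median of -0.54 against -0.38, and 34.1% of all genes. In XX germ cells at TS34 replicate 1 had 10 of 18 above by that amount, with a median of 0.54 against 0.33, and 29.3% of all genes. These values were compared without a test, and the choice of arrays to name was made after their values were seen.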
